A study of Mus musculus with 12 samples.

Results

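The transcriptome of wild-type (WT) germinal-vesicle oocytes was read from 3 pools, which are 3 of the 12 libraries of a mouse series on the mitofusins Mfn1 and Mfn2. The pools were chosen by their WT label alone, no other group was used, and all 11385 genes of the deposited table were ranked by their mean over the 3 pools. Each pool held 50 oocytes from unprimed mice of strain C57BL/6J, aged 21 to 23 days, and the oocytes were freed of cumulus cells by pipetting. The WT label names no transgene, Cre driver or floxed allele. Whether separate mice gave the pools is not stated in the labels, so the spread reported here is a spread between pools and may be partly technical. RNA was taken as total RNA and depleted of ribosomal RNA rather than selected by poly(A) tail.

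A germinal-vesicle oocyte is a grown egg cell that rests in prophase of the first meiotic division, with its large nucleus intact. It has built up mRNA and protein over weeks of growth, and much of the mRNA is kept with a short tail until meiosis resumes or the embryo needs it. Transcription stops near the end of growth, so these stores carry the egg through both divisions, fertilization and the first cleavage, when the embryo's own genome takes over. Because a poly(A) tail was not required, short-tailed stored mRNA could enter these libraries.

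Levels are given as CPM, counts scaled to a common library total and then between libraries by TMM, a trimmed mean that evens out differences in composition. CPM is a share of reads and grows with transcript length, so levels of different genes were compared as CPM per kb of merged exon. Merged exons join the annotated isoforms of a gene and can be longer than the transcript present. Such an error is the same in every pool. Comparisons of 2 genes against their SDs therefore cover the spread between pools only, not errors of length. Values after ± are SDs over the 3 pools (n = 3 throughout). The pools held 12556877, 12058077 and 12357228 counts, which puts a floor of 3 counts at 0.240, 0.253 and 0.251 CPM. Floors and counting errors cover counting only. Across genes the CPM of replicates 1 and 2 had a Spearman correlation of 0.982, replicates 1 and 3 of 0.970, and replicates 2 and 3 of 0.974 (n = 11385 genes in pairs of libraries, as a description). Only genes above 1 CPM in at least 3 of the 12 libraries are in the table, and listed genes that are not in it are not analysed here.

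The oocyte label was checked against 13 markers, and all 13 were in the table, with summed levels of 14778, 14361 and 11909 CPM in replicates 1 to 3. Gdf9 stood at 4775, 3966 and 3334 CPM, Nlrp5 at 2532, 2633 and 2219.7 CPM, Bmp15 at 1340.4, 1310.5 and 1223 CPM and Zp3 at 966, 1210.5 and 810.4 CPM. These 4 genes, which encode 2 secreted oocyte factors, a maternal-complex protein and an egg-coat protein, ranked 5, 14, 58 and 115 of 11385 by mean CPM.

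Replicate 3 stood apart in some transcripts of follicle cells. Of 15 granulosa and cumulus markers, 10 were in the table, while Amh, Amhr2, Foxl2, Wt1 and Has2 were not. The 10 summed to 187, 219 and 523 CPM in replicates 1 to 3, and 7 of them were highest in replicate 3 and 3 in replicate 2. Most of the rise in the sum lay in 3 subunits of activin and inhibin. Inhbb was at 4.47, 10.6 and 155 CPM, Inha at 8.55, 19.8 and 77.9 CPM and Inhba at 1.84, 5.31 and 71.3 CPM. Nr5a2 and Cyp19a1 differed less between pools, and Gata4 was lowest in replicate 3. Hsd3b1, the only one of 8 theca and stroma markers in the table and a steroid-synthesis enzyme, was at 3.27, 6.16 and 44.9 CPM. Markers of endothelium, blood and immune cells (4 of 10 in the table) summed to 150.1, 154 and 151 CPM, and those of the ovarian surface (2 of 5) to 5.99, 7.00 and 4.76 CPM. In a bulk library, more cells of a type and more RNA per cell cannot be told apart. The part of these transcripts in the results was not tested, and counts of varying genes below are therefore also given for replicates 1 and 2 alone, that is, without replicate 3.

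The read share was spread over many genes. The 10 highest genes held 4.03 ± 0.0850% of all CPM, the 100 highest 16.8 ± 0.0481% and the 1000 highest 56.5 ± 0.284%. A mean of at least 1000 CPM was reached by 114 genes, of at least 100 CPM by 2455, of at least 20 CPM by 6149 and of at least 5 CPM by 9115. Only 166 genes had a mean below 1 CPM, and 10 had no count in any WT pool. The median gene stood at 24.2 CPM and 7.69 CPM per kb.

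**Figure D1:**
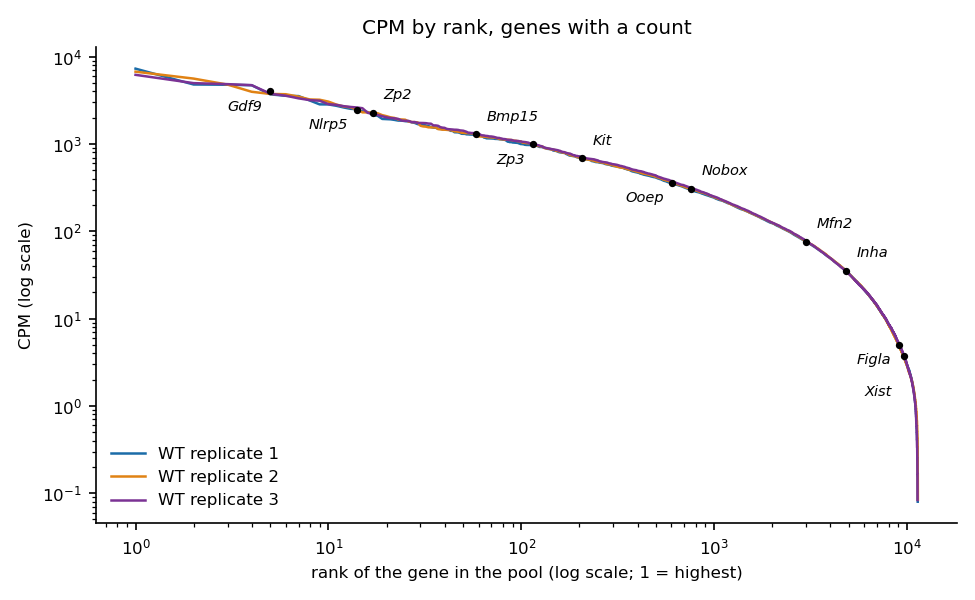
CPM against the rank of each gene within its pool, both on log scales, for the 3 WT pools (lines, genes with at least 1 count), with the mean of 12 named genes as black points. The 3 lines lie close together, and the points run from Gdf9 at rank 5 to Xist near the foot of the curve.

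Dnmt1, the enzyme that copies DNA methylation after replication, took the largest share of reads, with 7298, 6738 and 6201 CPM in replicates 1 to 3 (mean 6746 ± 549 CPM). Its gene lies on chromosome 9, 20907209 to 20959888 (GRCm38, gene span in GENCODE vM21). Zbed3, a zinc-finger protein that joins the maternal complex beneath the egg membrane, followed with 4805, 5616 and 4982 CPM (chromosome 13, 95323612 to 95337841). Spin1, a reader of histone methylation, stood at 4715, 4793 and 4851 CPM (chromosome 13, 51100880 to 51152546), and its pools lay within 1.03-fold of each other. Rdx, which encodes radixin, a link between actin and the plasma membrane, was at 3704, 3718 and 4719.6 CPM and was highest in replicate 3. Gdf9 completed the first 5 and was highest in replicate 1 and lowest in replicate 3 (chromosome 11, 53431023 to 53437904).

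The next 25 genes by mean CPM mixed germ-line genes with genes used in most cells. Nlrp14, Nlrp4f and Nlrp5 belong to a germ-line branch of the NLRP family, Padi6 encodes a protein of the cytoplasmic lattices, and Zp2 encodes an egg-coat glycoprotein. Tet3 oxidises 5-methylcytosine, Zfp57 protects imprints and Mll3 methylates histone H3. Ubiquitin genes among them were Trip12, a ligase, Usp9x, a deubiquitinase, and Skp1a, a subunit of SCF ligases. Bub1b serves the spindle checkpoint, Dcp1a the removal of mRNA caps, Hsp90aa1 protein folding and Ern1 the sensing of unfolded protein in the ER. Mdm4 restrains p53, Tiam1 activates Rac, Plat encodes tissue plasminogen activator and Lamb1 a laminin chain. Pla2g4c encodes a phospholipase, Syne2 a nuclear-envelope linker, Mtus1 a microtubule-associated protein, Ccdc6 a coiled-coil protein and Ankrd17 an ankyrin-repeat protein. C86187 is annotated as a lincRNA and stood at 1537, 2141 and 1939 CPM. These 25 ran from 3694 ± 110.1 CPM (Nlrp14) down to 1718 ± 115 CPM (Ankrd17).

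**Figure D2:**
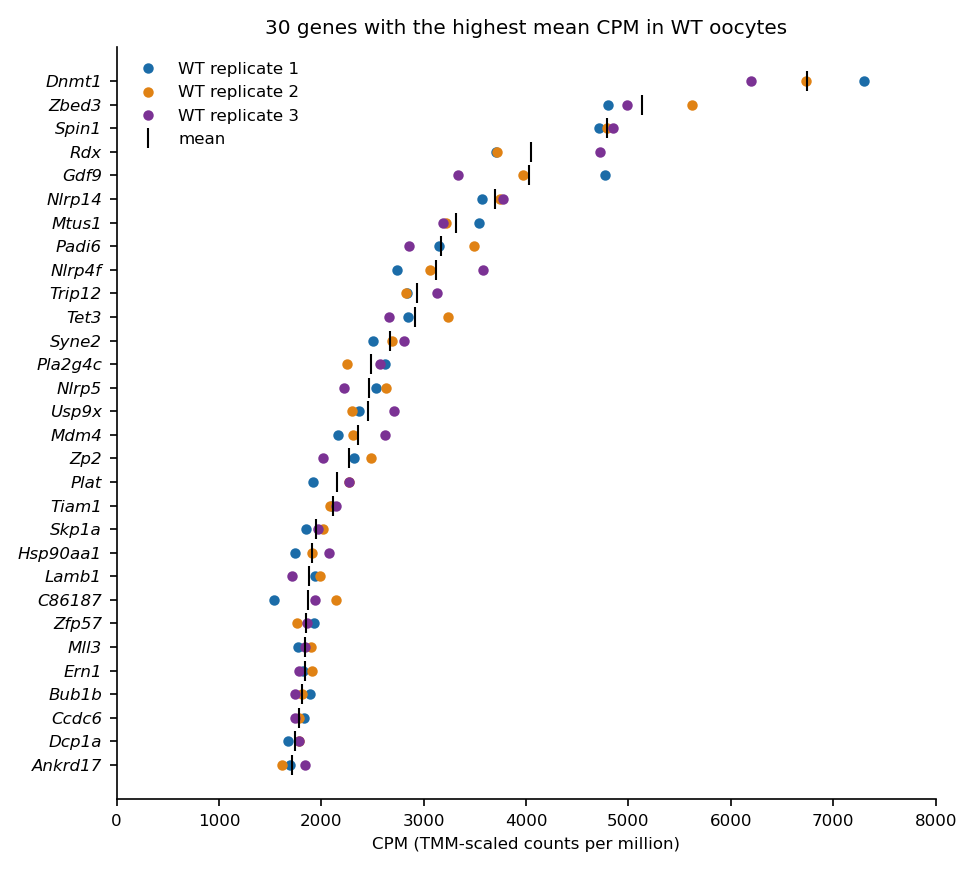
CPM of the 30 genes with the highest mean in the 3 WT pools (coloured points, linear axis from 0) with the mean of the pools (black bars). Dnmt1 lies at 6201 to 7298 CPM, and from Mdm4 down all means lie between 1718 and 2363 CPM.

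Correcting for length reordered this list. Zbed3 led at 2501 ± 208 CPM per kb, ahead of Gdf9 at 2245 ± 403 and Padi6 at 1357 ± 135 CPM per kb. The gap between Zbed3 and Gdf9 was smaller than their SDs combined, and that between Gdf9 and Padi6 was larger. Uchl1, an abundant ubiquitin hydrolase of oocytes and neurons (1253 ± 65.0 CPM per kb), Ldhb, a lactate dehydrogenase subunit (1236 ± 167 CPM per kb), H1foo, the oocyte linker histone (1167 ± 91.2 CPM per kb), and Npm2, a histone-storing nucleoplasmin (1101 ± 85.1 CPM per kb), came next, and neighbours in this order overlapped within their SDs. Dnmt1 moved to rank 9 at 1071 ± 87.1 CPM per kb. Syne2 was at rank 12 by CPM and at rank 400 by CPM per kb, with 21729 bases of merged exon. The 100 highest genes by CPM and by CPM per kb shared 50 genes, and their median exon lengths were 4755 and 2222 bases, against 3453 bases over all genes with a length. With genes of Gm or RIKEN names left out, the 20 highest by CPM per kb also held the tubulin gene Tubb4b (823 ± 75.5 CPM per kb), Trim61 (803 ± 37.3 CPM per kb) and the F-box gene Fbxw18 (862 ± 217 CPM per kb).

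Gene lists grouped by function were then described one by one, each by its members in the table, its median and the number of its genes among the 1000 highest by CPM, which hold 8.78% of all genes, or the 500 highest, which hold 4.39%. Of the 100 highest genes, 39 were in a list and 61 in none. A gene is said to vary where its mean was at least 5 CPM and its highest pool at least 2 times its lowest, which held for 8.6% of the 9115 genes tested. In replicates 1 and 2 alone it held for 2.55% of 9069 genes, so counts without replicate 3 are read against that lower share. With 3 pools of 1 group there is no contrast to test, so counts are read against these shares and no p-value is given. Over the 3 pools the share fell with level. It was 21.6% for genes of 5 to 20 CPM, 3.36% for 20 to 100 CPM and 0.733% from 100 CPM up. A list of abundant genes with no varying member is therefore near the share of its level. Lists of genes mostly at 5 to 20 CPM are likewise to be read against 21.6%. Among 48 lists with at least 3 members in the table, markers of other cell types left aside, 40 had a median CPM per kb above that of all genes.

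**Figure D3:**
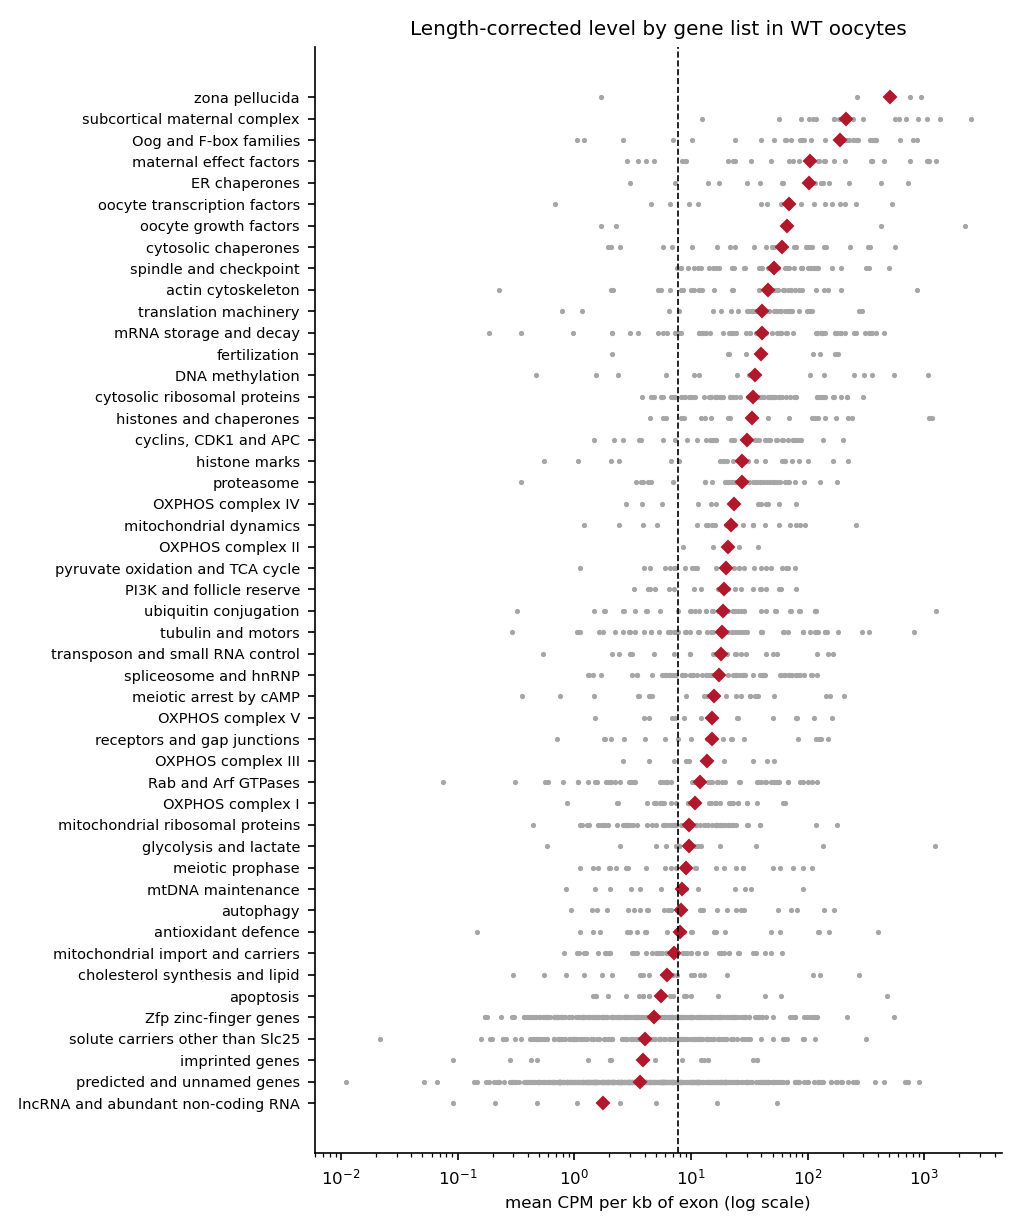
Mean CPM per kb in the WT pools (log scale) of the members (grey points) and the median (red diamond) of 48 gene lists, with the median of all genes (7.69 CPM per kb) as a dashed line. The zona pellucida, subcortical maternal complex and Oog and F-box lists have the highest medians, and the list of long and abundant non-coding RNA has the lowest.

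Transcripts of the egg coat were at high levels. The zona pellucida is the glycoprotein shell that sperm bind and cross, and mouse oocytes build it from ZP1, ZP2 and ZP3. Zp2 stood at 2322, 2483 and 2020.0 CPM, Zp3 at 966, 1210.5 and 810.4 CPM and Zp1 at 576.5, 583 and 409 CPM in replicates 1 to 3, and each was lowest in replicate 3. Per kb the means were 932 ± 96.2, 753 ± 152 and 266 ± 50.2 CPM, so Zp2 and Zp3 overlapped within their SDs and Zp1 lay below both. The pseudogene Zp4-ps was read at 1.76, 2.11 and 4.43 CPM. Together these 4 genes held 0.373% of CPM.

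Promoters of 3 oocyte genes are shown because the genes were high in every pool while most tissues do not express them, and because FIGLA, the germ-line factor that turns on the zona genes, is known to bind a short E-box with the letters CANNTG. Each run holds the 250 bases before the RefSeq start site (GRCm38.p6), 5′ to 3′ on the strand of the gene, with every CANNTG match in capitals. The windows are chr5:135979855-135980104 on the plus strand for Zp3, chrX:6320725-6320974 on the minus strand for Bmp15 and chr9:78378589-78378838 on the minus strand for Ooep.
Zp3: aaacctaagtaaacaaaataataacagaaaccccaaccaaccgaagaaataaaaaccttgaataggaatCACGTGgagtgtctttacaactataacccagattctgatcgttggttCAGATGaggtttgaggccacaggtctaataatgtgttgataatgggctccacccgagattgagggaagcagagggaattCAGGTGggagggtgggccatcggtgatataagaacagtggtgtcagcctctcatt
Bmp15: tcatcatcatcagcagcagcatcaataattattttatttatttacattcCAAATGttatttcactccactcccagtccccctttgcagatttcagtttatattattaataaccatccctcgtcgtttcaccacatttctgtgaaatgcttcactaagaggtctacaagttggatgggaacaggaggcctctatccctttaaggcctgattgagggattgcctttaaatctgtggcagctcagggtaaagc
Ooep: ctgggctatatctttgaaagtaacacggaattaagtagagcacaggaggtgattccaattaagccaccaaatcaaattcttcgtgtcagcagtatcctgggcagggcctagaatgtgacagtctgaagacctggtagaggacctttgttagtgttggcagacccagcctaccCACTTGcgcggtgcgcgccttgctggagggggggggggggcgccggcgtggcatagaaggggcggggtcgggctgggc
The Zp3 window holds 3 matches, with their first bases 181, 134 and 55 bases before the start, the Bmp15 window 1 at 201 bases and the Ooep window 1 at 78 bases. CANNTG reads the same on both strands. It was found in 66.2% of 32851 RefSeq windows of this length, in 58.2% of the 11567 windows of genes in the table and in 54.8% of the 115 windows of the 100 highest genes. TAATTA and TAATTG, letters that homeobox proteins such as NOBOX bind, and the TATA box letters TATAAA were also searched on both strands. Bmp15 holds a TAATTA 225 bases before its start, a match found in 4.84% of all windows, and Ooep a TAATTG on the other strand, 195 bases before its start, found in 7.17%. TATAAA was found on the other strand of Bmp15 alone, 155 bases before its start, and in 12.4% of all windows. No match overlaps another apart from TAATTA, which reads the same on both strands. These matches describe letters, not sites in use.

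A broad list of fertilization genes, some of them for sperm binding or the block to later sperm, had 9 members in the table. Its median was 39.6 CPM per kb. Umodl1, a uromodulin-like protein, stood at 837, 960.0 and 1039 CPM and Astl, the protease that cuts ZP2 after fertilization, at 433, 474 and 377 CPM. Folr4, the egg receptor for sperm IZUMO1 that is also called Juno, stood at 93.8, 100.1 and 70.7 CPM and Cd9, a membrane protein needed for fusion, at 36.8, 34.5 and 38.4 CPM. Per kb, Juno at 39.6 ± 6.97 CPM lay above Cd9 at 29.8 ± 1.60 CPM by more than their SDs combined, which leave out errors of exon length. The others were the integrin chains Itga6 (487 ± 34.7 CPM) and Itgb1 (78.7 ± 4.43 CPM), the secreted protein Oosp1 (125 ± 6.84 CPM), the protease inhibitor Spint1 (53.1 ± 1.17 CPM) and Mettl23 (2.705 ± 0.485 CPM). None of the 8 members of at least 5 CPM varied.

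Secreted oocyte factors direct the growth of the follicle cells around the egg. Gdf9 and Bmp15, TGF-beta relatives that act together, stood at 2245 ± 403 and 422 ± 19.98 CPM per kb, so Gdf9 was far above Bmp15 beyond the spread between pools. Bmp6 was at 229, 256 and 208 CPM and Fgf8, which drives glycolysis in cumulus cells, at 99.3, 109 and 69.9 CPM. Fgf10 (4.95, 8.01 and 7.85 CPM) was low. So was Kitl (10.9, 14.7 and 13.3 CPM), a list member that encodes the KIT ligand of granulosa cells and is also among the granulosa markers above. Gdf9, Bmp15, Bmp6 and Fgf8 were all lowest in replicate 3, and no member varied.

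On the receiving side, 21 surface genes had a median of 15.1 CPM per kb. Kit, the receptor for KIT ligand from granulosa cells, was level across pools at 706, 695 and 659.8 CPM, and Cdh1, encoding E-cadherin, at 552, 577.4 and 534 CPM. Gja4 encodes connexin 37, the oocyte's side of the gap junction, and stood at 197, 226 and 173 CPM, whereas Gja1, the connexin 43 of granulosa cells, stood at 15.4, 28.5 and 184 CPM and was far higher in replicate 3. Daam1, a formin of filopodia (907 ± 141 CPM), and the BMP receptor Bmpr2 (201 ± 36.4 CPM) were also among the leading members. Myo10, the myosin of filopodia tips, was at 1238, 571 and 301 CPM, so replicate 1 was 4.11 times replicate 3. Of 19 surface genes of at least 5 CPM, 4 varied, a share above the 8.6% of all genes. Beside Gja1 and Myo10 these were Cdh2 (21.2, 24.7 and 42.9 CPM) and Insr (14.6, 13.1 and 29.8 CPM), named after their values were seen. Without replicate 3, 1 of 19 varied, against 2.55% of all genes.

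The PI3K pathway sets whether a resting follicle starts to grow, with FOXO3 as its brake and mTOR downstream. All 20 listed genes were in the table, with a median of 19.14 CPM per kb, and none varied. The count and median include Pdk1 (22.9 ± 3.03 CPM), a symbol that in mouse names a pyruvate dehydrogenase kinase. Foxo3 stood at 430.0, 432 and 441 CPM, Pik3r1, a regulatory subunit of PI3K, at 603, 504 and 680.0 CPM and Rictor, of the second mTOR complex, at 376, 394 and 456 CPM. Mtor stood at 211 ± 25.2 CPM and Tsc1 at 206 ± 30.2 CPM.

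Germ-line transcription factors were unequal in their stores. The list had 17 members in the table, a median of 69.2 CPM per kb and 8 of them among the 1000 highest genes. Obox2, an oocyte homeobox gene with near-identical copies, led at 791, 748 and 1079.6 CPM, with Obox1 at 392, 407 and 559.7 CPM and Obox5 at 321, 329 and 387 CPM, all highest in replicate 3. Reads of these copies may have been split by the authors' counting, so their values are uncertain. Sall4 was at 729, 724 and 703 CPM and Ybx2, whose protein packages stored mRNA, at 373, 443 and 328 CPM. Nobox, needed for early follicle growth, was at 356, 344 and 221 CPM and 162 ± 39.4 CPM per kb. Figla, which acts from the start of follicle formation, was at only 3.19, 5.74 and 6.10 CPM and 6.60 ± 2.08 CPM per kb, far below Nobox. Zscan4c, known from the embryo after genome activation, had the largest ratio between pools of the list, at 1.68, 0.590 and 2.42 CPM, under the 5 CPM minimum. No member of at least 5 CPM varied.

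Histones and their chaperones had 23 members in the table, with a median of 33.7 CPM per kb. H1foo, the oocyte form of linker histone H1, was at 1284, 1422 and 1222 CPM, and Npm2 at 1158, 1136 and 1001 CPM. Hist1h1c, a linker histone of body cells, was read at 5.75, 4.05 and 10.9 CPM. Per kb, H1foo at 1167 ± 91.2 CPM stood above the other linker histone genes of the list, which were themselves unequal. These were Hist1h1a at 176 ± 33.9, H1f0 at 14.7 ± 1.61 and Hist1h1c at 4.41 ± 2.27 CPM per kb. Atrx (1178, 1343 and 1617 CPM), a remodeller of repeats, was highest in replicate 3, and Chaf1a (677 ± 78.2 CPM), Slbp (634 ± 139 CPM), which binds histone mRNA, and Npm1 (446 ± 29.3 CPM) followed. Of the 23, 3 varied, all low: Hist1h4i (7.83, 7.59 and 2.42 CPM), Hist1h1c and H2afz (13.3, 7.51 and 18.3 CPM). Without replicate 3, none of 22 did. Histone mRNAs that end without a tail could be read in these libraries, but near-identical histone genes make single-gene values uncertain.

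DNA methylation genes took 1.46% of all CPM with 17 members. Beside Dnmt1, Tet3 stood at 2846, 3239 and 2658 CPM, Zfp57 at 1926, 1767 and 1856 CPM and Uhrf1, which brings DNMT1 to newly made DNA, at 1124, 1138 and 1083 CPM. Per kb the order of these 3 was Zfp57 at 547 ± 23.5, Uhrf1 at 304 ± 7.82 and Tet3 at 248 ± 25.2 CPM. Kdm1b, a histone demethylase needed to set maternal imprints, was at 735, 685 and 639 CPM and Setdb1 at 488, 480.2 and 503 CPM. Per kb, Dnmt1 at 1071 ± 87.1 lay above the new-methylation enzymes Dnmt3a at 35.2 ± 3.73 and Dnmt3l at 36.2 ± 3.35 CPM, and Dppa3, which protects the maternal genome from demethylation, was at 358 ± 18.0 CPM per kb. Dnmt3a, Dnmt3l and Dppa3 are outside the naming rule and were picked for their known roles. Tet3 was far above Tet1, which stood at 0.471 ± 0.262 CPM per kb. Tet1 (4.31, 4.89 and 11.1 CPM) was the only 1 of 17 that varied, and none of 15 did without replicate 3.

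Enzymes of histone marks had 26 members, 9 of them among the 1000 highest genes. Mll2, a histone H3 methyltransferase also known as KMT2D, was at 1309, 1448 and 1241 CPM and was not matched to an exon length. Crebbp, an acetyltransferase (796, 774 and 799.9 CPM), and Setd2, which methylates H3K36 in gene bodies (669, 724 and 732 CPM), were level across pools. The polycomb subunits Suz12 and Ezh2 stood at 166 ± 13.2 and 220.3 ± 29.5 CPM per kb. Kdm6b, which removes the polycomb mark, was at 421 ± 79.6 CPM. Kdm5b (4.55, 10.7 and 14.4 CPM) alone of 25 varied, and 1 of 25 did without replicate 3.

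Mouse oocytes use DICER to make short interfering RNA against repeats, while PIWI proteins do so mainly in testis. Of 22 genes of small RNA control in the table, Dicer1 led by CPM and was even across pools at 1162, 1189 and 1207 CPM. Tdrd1, a tudor protein of germ granules, followed at 924, 899 and 865 CPM, with Drosha at 232 ± 40.9, Gtsf1 at 180.5 ± 27.0 and Eif2c3, encoding AGO3, at 153 ± 25.05 CPM. Tex15 was at 244, 119 and 241 CPM, low in replicate 2, and Mov10 at 6.79, 12.99 and 3.84 CPM. These 2 of 20 varied, and 1 of 20 did without replicate 3.

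Imprinted genes, expressed from 1 parental copy in other tissues, were low. The 17 members in the table had a median of 3.91 CPM per kb, below the 7.69 of all genes, and 1 was among the 1000 highest. Igf2r, which clears IGF2, led at 355, 310.4 and 309 CPM, followed by H13 (199.8 ± 22.9 CPM), Ube3a (154 ± 18.7 CPM), Gnas (135 ± 8.26 CPM), Mest (102 ± 20.7 CPM) and Grb10 (62.4 ± 3.84 CPM). The 3 that varied were all highest in replicate 3: Nap1l5 at 2.00, 5.65 and 38.7 CPM, the non-coding Meg3 at 2.88, 2.95 and 16.5 CPM and Kcnq1ot1 at 4.95, 4.05 and 16.7 CPM. Without replicate 3, none of 12 varied. Strand in the counting is not given, so reads of Kcnq1ot1 and of the gene it runs against cannot be told apart.

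Genes of meiotic prophase, a stage these oocytes had entered before birth, had 24 members and a median of 9.14 CPM per kb. By CPM the first were repair and cohesin genes that also work outside meiosis, with Brca2 at 868, 957 and 1083 CPM, Brca1 at 346, 356 and 444 CPM and the cohesin subunits Smc3 (367 ± 54.5 CPM) and Rad21 (199.6 ± 23.8 CPM). Syce2 (187 ± 11.6 CPM) and Sycp2 (158 ± 16.7 CPM), parts of the synaptonemal complex, came next. Per kb, Syce2 at 109.7 ± 6.798 CPM stood above Brca2 at 90.4 ± 10.1 and Smc3 at 75.6 ± 11.2 CPM. Hormad1, a protein of unsynapsed chromosome axes, was at 2.95, 1.01 and 34.3 CPM, nearly all in replicate 3, and Gm1564 was at 11.3, 16.3 and 28.8 CPM. These 2 of 20 varied, and none of 19 did without replicate 3.

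Meiosis is held back by cAMP, which the oocyte makes itself and which keeps CDK1 inactive. Of the 26 genes of this arrest in the table, Pde3a, the phosphodiesterase that breaks down cAMP when meiosis resumes, was at 585, 619 and 698 CPM, and Wee2, the oocyte kinase that inhibits CDK1, at 620.0, 609.7 and 553 CPM. Akap1, a mitochondrial anchor of protein kinase A, was at 658, 637 and 548 CPM, Akap13 at 476 ± 17.9 CPM, Rgs2 at 465 ± 15.1 CPM and Pde3b at 177 ± 25.8 CPM. These leading genes were close between pools. Lower in the list, 6 of 24 varied, against 8.6% of all genes tested. Without replicate 3, 1 of 24 did, against 2.55% of all genes. The largest ratio was that of Adcy1, an adenylate cyclase, at 76.2, 52.0 and 2.67 CPM, so replicate 3 held 28.5 times less than replicate 1.

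The machinery that drives and ends the divisions was stored broadly. Of 42 genes of CDK1 and the anaphase-promoting complex, 7 were among the 1000 highest, and the median was 30.3 CPM per kb. Ccnb1, the cyclin B of meiotic entry, stood at 453, 476 and 579 CPM and Mastl, the Greatwall kinase, at 419, 460.3 and 589 CPM, both highest in replicate 3. Cdc27 (462 ± 58.5 CPM) and Anapc1 (289 ± 15.6 CPM) are subunits of the anaphase-promoting complex, Ppp2ca (335 ± 45.6 CPM) is the phosphatase PP2A and Plk1 (297 ± 22.9 CPM) is a mitotic kinase. Only Ube2c (5.75, 9.95 and 4.84 CPM), the ubiquitin-conjugating enzyme of that complex, varied, among 40, and none of 41 did without replicate 3. Fzr1, its activator in arrested oocytes, stood at 163, 162 and 162 CPM. It is among the 10 genes chosen below for the smallest CV of those of at least 100 CPM.

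Spindle and checkpoint genes were higher still. All 43 had a mean of at least 5 CPM, 17 were among the 1000 highest genes and the median was 51.6 CPM per kb. None varied, but 29 had at least 100 CPM, a level at which 0.733% of all genes varied. Bub1b, encoding the checkpoint kinase BUBR1, was at 1889, 1809.9 and 1746 CPM and Myo5b, a motor of vesicle and spindle transport, at 1365, 1316 and 1294 CPM. Kif23, a kinesin of the midzone, was at 999, 1119.9 and 1334 CPM, Pcnt, the pericentrin of acentriolar poles, at 907, 1221 and 884 CPM and Tacc3, which stabilises microtubules, at 976, 1001 and 919 CPM. Cenpe, a kinetochore motor, was at 608 ± 88.8 CPM.

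The subcortical maternal complex lies beneath the egg membrane, is built only in oocytes and early embryos, and is needed for the first cleavages. Its core and partners, with the Nlrp and Oas1 relatives, had 20 members in the table that together held 2.50% of all CPM. Their median was 213 CPM per kb, and 17 of 20 were among the 1000 highest genes. Nlrp5, also called MATER, stood at 699 ± 61.2, Tle6 at 563 ± 38.6, Khdc3 at 208 ± 40.9 and Ooep at 169 ± 14.1 CPM per kb, so the complex's core members differed by more than their spread between pools, except Khdc3 and Ooep. Zbed3 was higher than all of them per kb, as was Padi6. Ooep was at 373, 385 and 328 CPM and Tle6 at 1281, 1205 and 1117 CPM. Nlrp14 (3568, 3746 and 3769.5 CPM) and Nlrp4f (2739, 3058 and 3576 CPM) exceeded Nlrp5 in both units. Nlrp4c had the largest ratio between pools, 1.49-fold (57.1, 38.3 and 50.5 CPM), so no member varied. Of the 20, 19 had at least 100 CPM, a level at which 0.733% of all genes varied. Reads of close relatives such as Nlrp4a to Nlrp4f or the Oas1 genes may be shared among copies.

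Maternal-effect genes, defined by embryos that fail when the mother lacks them, had 30 members and a median of 104 CPM per kb, with 17 among the 1000 highest. Some members, such as Dnmt1, Npm2 and Btg4, are also counted in other lists. Uchl1 was at 1469.9, 1553 and 1400.1 CPM and Npm2 at 1158, 1136 and 1001 CPM. Btg4, which brings the deadenylase to mRNA as meiosis resumes, was at 796, 693 and 746 CPM. Basp1 (3.67, 5.82 and 13.4 CPM) and Bcas2, a splicing factor (14.9, 16.6 and 8.02 CPM), were the only 2 that varied, and none of 29 did without replicate 3.

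Families that are expanded in the mouse germ line took 1.36% of CPM with 35 members. Trim61 stood at 1673, 1551 and 1539.9 CPM, Fbxw18 at 973, 1322 and 1632 CPM and Fbxo34 at 941, 1134 and 936 CPM. Fbxw24 (925 ± 47.8 CPM), Oog3 of the oogenesin family (718 ± 178 CPM) and Trim60 (651 ± 38.2 CPM) followed. The median was 190 CPM per kb and 20 were among the 1000 highest genes. Fbxw18 had the largest ratio between pools of the 100 highest genes of the table, 1.68-fold, with the highest value in replicate 3. Only Fbxo15 (3.43, 2.699 and 10.02 CPM) of 33 varied, and none of 32 did without replicate 3. Many of these genes are recent duplicates, so their single-gene values are uncertain.

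Stored mRNA is bound, kept short-tailed and later degraded by a known set of proteins. The 63 members of that set held 1.82% of CPM, had a median of 40.7 CPM per kb, and 26 were among the 1000 highest genes. Dcp1a, a decapping activator, was at 1672, 1782 and 1783 CPM. Lsm14b, which coats stored mRNA, was at 1117, 1165 and 1088 CPM, Eif4enif1, which holds back the cap-binding protein, at 1062, 1077 and 1071 CPM, and both were nearly equal in the 3 pools. Igf2bp2, an mRNA-binding protein, was at 1010.4 ± 59.5 CPM, Upf1, of nonsense-mediated decay, at 818 ± 71.0 CPM and Btg4 at 745 ± 51.3 CPM. Only Zcchc11, which adds uridine to RNA ends (8.47, 12.5 and 33.3 CPM), and Mov10 varied, 2 of 61, and none of 61 did without replicate 3.

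The translation machinery was present at moderate levels. Initiation and elongation factors (42 in the table) had a median of 40.9 CPM per kb, led by CPM by Eif4g2 (581, 535 and 559 CPM), Eef1a1 (522, 502 and 545 CPM) and Eif4a1 (481, 480.0 and 515 CPM), with Eif4g1 (442 ± 7.06 CPM), Eif4b (419 ± 29.1 CPM) and Eif3c (337 ± 18.7 CPM) after them. Eif3f (9.82, 21.6 and 17.8 CPM) alone of 41 varied, and 1 of 41 did without replicate 3. The 74 cytosolic ribosomal protein genes had a median of 34.4 CPM per kb but summed to only 0.413% of CPM. Rpl5 stood at 510.2, 403 and 425 CPM, Rpl37 at 199.7, 291 and 254 CPM and Rpl4 at 205, 191 and 194 CPM, and 8 of 71 varied, led by Rps26 at 12.7, 38.2 and 17.7 CPM, against 2 of 71 without replicate 3. These genes have many processed pseudogenes, and the labels do not state how reads matching several genes were assigned.

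Mitochondria of the oocyte come down to the embryo, and the series as a whole concerns their fusion. Mfn1 stood at 264, 278 and 297 CPM and 57.0 ± 3.34 CPM per kb in WT, and Mfn2 at 87.2, 73.4 and 68.4 CPM and 15.0 ± 1.92 CPM per kb, so Mfn1 was higher beyond the spread between pools. Genes of mitochondrial dynamics had 23 members, a median of 22.1 CPM per kb, and none of 21 varied. Mtfr2, a fission regulator, was at 469.6, 535 and 551 CPM, Rhot1, which ties mitochondria to motors, at 411, 415 and 421 CPM and its adaptor Trak1 at 341, 396 and 343 CPM. Immt, which shapes cristae, was at 216 ± 24.2 CPM.

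Nuclear genes of the respiratory chain had medians of 10.9 CPM per kb for complex I (35 genes), 20.8 for complex II (4), 13.7 for complex III (11), 23.5 for complex IV (14) and 15.2 for complex V (16). Only Atp5a1 at 358, 316 and 309 CPM and Atp5b at 289.7, 306 and 333 CPM, the catalytic core of ATP synthase, were among the 1000 highest genes. Sdha led complex II at 98.7, 109 and 119.8 CPM, Uqcrc2 complex III at 66.1, 65.3 and 60.6 CPM, ahead of Uqcrh (28.3 ± 5.47 CPM), and Cox5b complex IV at 76.4, 78.1 and 63.6 CPM. In complex II the others were Sdhd (32.0 ± 3.78 CPM), Sdhc (27.3 ± 1.26 CPM) and Sdhb (17.7 ± 2.91 CPM). Cyct, the testis cytochrome c, was at 3.35, 3.37 and 1.84 CPM against 29.6, 27.2 and 28.1 CPM for the body form Cycs. In complex I, 4 of 26 members varied, in complex IV 1 of 12, in complex V 1 of 14, and in complexes II and III none of 4 and none of 8, against 8.6% of all genes. Without replicate 3 these counts were 0 of 28 for complex I, 1 of 12 for complex IV and 0 of 14 for complex V. In complexes II and III they were none of 4 and none of 9, and the share of all genes was then 2.55%. Ndufc2 had the largest ratio of the 4 in complex I, at 23.9, 18.6 and 7.68 CPM. Transcripts of mitochondrial DNA itself are not analysed here.

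Genes that keep mitochondrial DNA (15 in the table) had a median of 8.40 CPM per kb. Rrm2b, which makes deoxynucleotides outside S phase, led at 357, 431 and 450.5 CPM, and Tfam, which packages mitochondrial DNA, was steady at 50.9, 50.1 and 51.3 CPM. Nrf1, a factor for nuclear genes of mitochondria, was at 141, 101 and 234 CPM and varied, as did Tfb2m (7.99, 4.64 and 14.3 CPM) and Gabpa (7.27, 4.13 and 11.4 CPM), each highest in replicate 3. These were 3 of 14, and none of 14 varied without replicate 3. The 72 mitochondrial ribosomal protein genes had a median of 9.69 CPM per kb, with Mrps25 at 265, 234 and 219 CPM and Mrps22 at 218, 207 and 214 CPM in front and 4 of 61 varying, against 1 of 60 without replicate 3. Import and carrier genes (52) had a median of 7.19 CPM per kb, none among the 1000 highest, and were led by the ornithine carrier Slc25a15 at 214, 203 and 205 CPM. Of 45, 5 varied, with the largest ratio among these in Slc25a36 (7.67, 2.36 and 6.85 CPM), and 2 of 46 did without replicate 3.

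Genes of fuel use were stored unequally. An oocyte burns pyruvate and takes up little glucose. Genes of pyruvate oxidation and the citric acid cycle (24) had a median of 20.0 CPM per kb, led by CPM by Cs, citrate synthase, at 228, 237 and 225 CPM, with Dlst (179 ± 14.2 CPM), Dld (172 ± 21.4 CPM) and Pdhx (156 ± 3.32 CPM) next. Glycolysis and lactate genes (16) had a median of 9.58 CPM per kb. Ldhb stood apart at 1855, 1549.7 and 1433 CPM and 1236 ± 167 CPM per kb, while Ldha, the muscle form, was at 2.80, 4.89 and 6.26 CPM and 2.45 ± 0.922 CPM per kb. Pkm (352 ± 16.6 CPM), Gpi1 (104 ± 9.10 CPM) and Aldoa (84.5 ± 12.4 CPM) followed Ldhb by CPM. Hk2, a hexokinase, was at 3.35, 4.05 and 2.51 CPM, and was chosen with its value seen. No glycolysis gene of at least 5 CPM varied.

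Cholesterol synthesis was uneven along the pathway. Fdft1, squalene synthase, was at 968, 1041 and 1051 CPM and Hmgcs1 at 361, 436 and 533 CPM, but the median of 21 members was 6.20 CPM per kb, below that of all genes. Insig1 (302 ± 47.0 CPM), a brake on the pathway, Hsd17b7 (65.2 ± 16.2 CPM) and Sc5d (57.9 ± 10.8 CPM) were lower. Antioxidant genes (24) had a median of 8.03 CPM per kb. Sod1, cytosolic superoxide dismutase, stood at 403 ± 24.4 CPM per kb, above Prdx2 at 152 ± 27.8 and Prdx1 at 123 ± 2.92 CPM per kb. Prdx6 (5.67, 6.58 and 18.9 CPM) alone of 19 varied, and none of 19 did without replicate 3.

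Protein folding genes of the ER were among the highest lists, with a median of 103 CPM per kb, 10 of 19 members among the 1000 highest and none varying. Calr was at 1414, 1395 and 1985 CPM, Hsp90b1 at 1041, 1118 and 1450.1 CPM and Canx at 634, 593 and 744 CPM, and each was highest in replicate 3. The sensor Ern1, or IRE1, was even at 1817, 1911 and 1783 CPM, and the chaperone Hspa5, or BiP, was at 464, 441 and 561 CPM. Cytosolic chaperones (27) had a median of 60.0 CPM per kb, led by Hsp90aa1 at 1745, 1911 and 2079.6 CPM and Hsp90ab1 at 875, 825 and 874 CPM, and none varied.

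Genes of protein and organelle turnover mostly stood lower than the chaperones. Proteasome genes (43) had a median of 27.5 CPM per kb and none of 38 varied, with Psme4, a proteasome activator, in front at 431, 401 and 500.1 CPM. Ubiquitin genes (40) had a median of 18.8 CPM per kb and 5 of 36 varied, among them Ube2f (6.71, 19.5 and 7.10 CPM) and Uba6 (44.3, 125 and 103 CPM), and 4 of 36 did without replicate 3. Autophagy genes (27) had a median of 8.19 CPM per kb, led by Lamp1 (347, 401 and 384 CPM) and Atg5 (361, 295 and 314 CPM). Apoptosis genes (20) had a median of 5.52 CPM per kb, below that of all genes. Within them Bcl2l10, an oocyte member of the BCL2 family, stood at 480.2 ± 61.2 CPM per kb against 43.3 ± 1.45 for Bcl2l1, and Trp63, whose protein guards oocytes against DNA damage, was at 75.7, 82.5 and 70.6 CPM. Trp73 (12.3, 22.3 and 9.77 CPM), Bcl2l11 (29.2, 41.6 and 19.12 CPM) and Casp9 (5.19, 7.17 and 10.5 CPM) varied, 3 of 17 against 8.6% of all genes. The means of Trp73 and Casp9 lay at 5 to 20 CPM, a level at which 21.6% of all genes varied. Without replicate 3 none of 17 did, against 2.55% of all genes.

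Cytoskeletal genes held 1.05% (63 tubulin and motor genes) and 1.08% (37 actin genes) of CPM. Tubb4b was at 1186, 1335 and 1425 CPM, highest in replicate 3, and Kif14 at 945 ± 201 CPM. In the actin list, which had a median of 45.4 CPM per kb and no varying member, Rdx was followed by Daam1, Fmn2, the formin that moves the meiotic spindle (565, 620.0 and 554 CPM), and Diap1 (450.0 ± 48.5 CPM). Actb, the common reference gene, was even at 114, 113 and 125 CPM, or 60.9 ± 3.54 CPM per kb, and is named outside the rule. Of 58 tubulin and motor genes 4 varied, with the largest ratio among these in Tuba1a (7.11, 0.928 and 7.77 CPM), and 2 of 57 did without replicate 3.

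Large families named by symbol lay nearer the median gene. Spliceosome and hnRNP genes (71) had a median of 17.4 CPM per kb and were led by Prpf8 (627, 667 and 623 CPM), with 3 of 69 varying, and 1 of 69 without replicate 3. Rab and Arf GTPases (61) had 11.9 CPM per kb, led by Rab7 (256, 326 and 361 CPM), with 2 of 49 varying, and none of 48 without replicate 3. The 269 Zfp genes had a median of 4.80 CPM per kb, and 25 of 205 varied, with the largest ratio among these in Zfp248 (12.9, 5.57 and 0.919 CPM), and 7 of 209 did without replicate 3. The 160 solute carriers outside Slc25 had a median of 4.01 CPM per kb, and 11 of 110 varied, led by the amino acid carrier Slc38a1 at 0.799, 3.29 and 11.3 CPM, and 3 of 108 did without replicate 3. The 6 highest by CPM were Slc45a3 (1121, 1158 and 987 CPM), the ascorbate carrier Slc23a2 (586, 620.0 and 561 CPM), the zinc importer Slc39a10 (491, 470.2 and 544 CPM), the cystine carrier Slc7a11 (466, 539 and 495 CPM), the zinc importer Slc39a6 (438, 444 and 464 CPM) and the glycine carrier Slc6a9 (237, 251 and 243 CPM).

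Protein-coding genes held 98.3 ± 0.0106% of CPM and 102 lincRNA genes 0.507 ± 0.0266%. The best known non-coding RNAs were low, with a median of 1.77 CPM per kb over the 8 of 9 that had a length. Malat1, a nuclear RNA abundant in most body cells, was at 50.1, 74.9 and 229 CPM. Xist, which coats an inactive X chromosome in female body cells, was at 0.878, 2.19 and 8.10 CPM, and Rpph1, the RNA of RNase P, at 15.4, 20.5 and 16.03 CPM. Snhg1 (4.31, 6.33 and 2.25 CPM), Gas5 (2.72, 2.11 and 1.503 CPM), Rmrp (2.64, 0.843 and 0.752 CPM) and Snhg5 (0.319, 0.928 and 2.09 CPM) also had few reads. Malat1, Xist, Meg3 and Kcnq1ot1 were each highest in replicate 3, and the summed CPM of the 9 was 84.2, 115 and 293. The 599 genes with Gm or RIKEN names held 2.79% of CPM, and 16 of them were among the 500 highest genes.

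Both X chromosomes are active in oocytes. The median CPM per kb of 369 X-linked genes was 0.759 ± 0.0525 of that of 10906 autosomal genes, and 0.805 ± 0.0364 among genes of at least 5 CPM. These ratios are descriptions over the genes of the table and depend on which genes it holds. Bmp15 and Usp9x were among X-linked genes at high levels, with 422 ± 19.98 and 207 ± 18.6 CPM per kb. Male germ-line markers were mostly not in the table, but Piwil1 was read at 61.8, 69.4 and 60.5 CPM and Ddx25 at 44.9, 46.3 and 42.4 CPM in every pool, with Ldhc at 14.5, 9.62 and 8.10 and Prm2 at 3.11, 3.96 and 2.76 CPM.

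The pools were close for abundant genes and spread for rare ones. Over 9115 genes of at least 5 CPM the median coefficient of variation (CV, the SD as a percent of the mean) was 13.2%, against 4.60% from counting alone, and 6581 genes had a CV over 2 times their counting CV. At least 2-fold variation was seen in 784 genes (8.6%) and at least 10-fold in 27. It was seen in 642 of 2966 genes of 5 to 20 CPM (21.6%), in 124 of 3694 of 20 to 100 CPM (3.36%) and in 18 of 2455 above that (0.733%). None of the 100 highest genes varied, and 3 of the 1000 highest did. Those 3, named after their values were seen except Myo10, were Myo10, Cttnbp2nl at 405, 455 and 161 CPM and Kcnh1 at 384, 148 and 356 CPM, each set apart by a different pool.

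**Figure D4:**
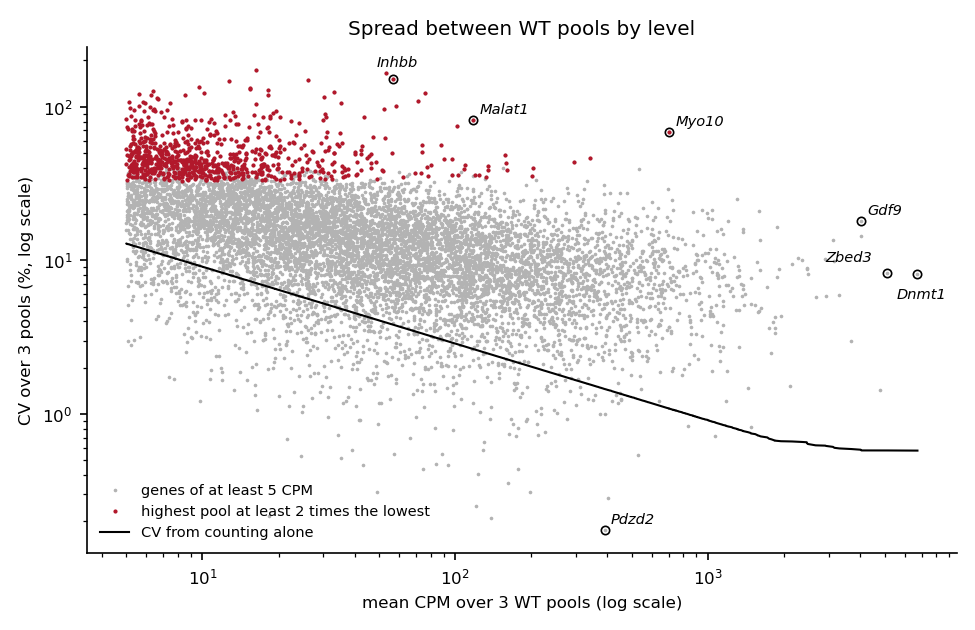
CV over the 3 WT pools against mean CPM (both log scales) for 9115 genes of at least 5 CPM, with the 784 genes that varied at least 2-fold in red and the median CV that counting alone gives as a line; rings mark named genes. Most genes lie above the line, red points thin out above 100 CPM, and Gdf9, Zbed3 and Dnmt1 lie at CVs of 17.9%, 8.31% and 8.13%.

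More genes stood apart in replicate 3 than in either other pool. It was at least 2 times both other pools in 132 genes (1.45% of those tested) and at most 1/2 of both in 95 (1.04%). Replicate 1 was high in 33 (0.362%) and low in 70 (0.768%), and replicate 2 high in 16 (0.176%) and low in 46 (0.505%). With replicate 3 left out, 231 of 9069 genes varied (2.55%), 215 of them among the 784. Leaving out replicate 1 gave 439 (4.82%) and leaving out replicate 2 gave 522 (5.72%), with 2 pools compared instead of 3 in each case. In a longer list of granulosa and cumulus genes with 12 members of at least 5 CPM, 7 varied over the 3 pools, and 2 of 9 varied in replicates 1 and 2.

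The 20 genes of at least 20 CPM with the largest ratio were chosen for their spread and are given as a description. Genes with Gm or RIKEN names were left out of this choice. Among them were 3 subunits of activin and inhibin. Inhba stood at 1.84, 5.31 and 71.3 CPM, Inhbb at 4.47, 10.6 and 155 CPM and Inha at 8.55, 19.8 and 77.9 CPM, so each was highest in replicate 3 and next highest in replicate 2. Gja1 had the same order. Thbs1, a matrix protein, was at 8.70, 10.04 and 81.0 CPM, Tenm4, a teneurin of the cell surface, at 22.8, 30.0 and 162 CPM and Scd2, a fatty acid desaturase, at 17.5, 12.1 and 62.3 CPM, and these too were highest in replicate 3. So were Lrpprc, which stabilises mitochondrial mRNA (25.1, 23.5 and 127 CPM), Hist2h2bb, a core histone (8.70, 11.2 and 70.5 CPM), Lzts1 (12.6, 8.01 and 40.2 CPM), Akr1cl (9.18, 14.8 and 43.1 CPM) and Fstl5 (4.63, 31.4 and 53.7 CPM). With Malat1, 13 of the 20 were highest in replicate 3. Other granulosa genes differed less between pools, with Serpine2 at 350.2, 296 and 371 CPM, Nr5a2 at 85.3, 84.3 and 103 CPM and Cyp19a1, the aromatase, at 26.8, 27.3 and 34.4 CPM. Fshr, the FSH receptor, had no count in replicate 1 and was low in the others, at 0, 2.45 and 2.42 CPM. Gata4 was lowest in replicate 3, at 42.8, 50.8 and 29.5 CPM.

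The other 7 of these 20 genes showed other orders. Agpat9, an acyltransferase of triglyceride synthesis, was at 101, 0.590 and 55.5 CPM, with 7 counts in replicate 2 and 1268 in replicate 1, a ratio of 172. AY512915 was at 156, 1.69 and 2.51 CPM, nearly all in replicate 1. Adcy1 and Ublcp1 (58.8, 27.2 and 6.26 CPM) were highest in replicate 1 and lowest in replicate 3. Phka2, a subunit of phosphorylase kinase (41.0, 54.8 and 8.94 CPM), Slc10a6, a carrier of steroid sulfates (6.71, 36.7 and 27.1 CPM), and Homer2, a scaffold protein (17.6, 77.3 and 46.7 CPM), were highest in replicate 2. A predicted gene below 20 CPM, 4931408C20Rik, named after its values were seen, had 0 counts in replicates 1 and 2 and 584 in replicate 3 (48.8 CPM), at least 204-fold above the floor of replicate 1.

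**Figure D5:**
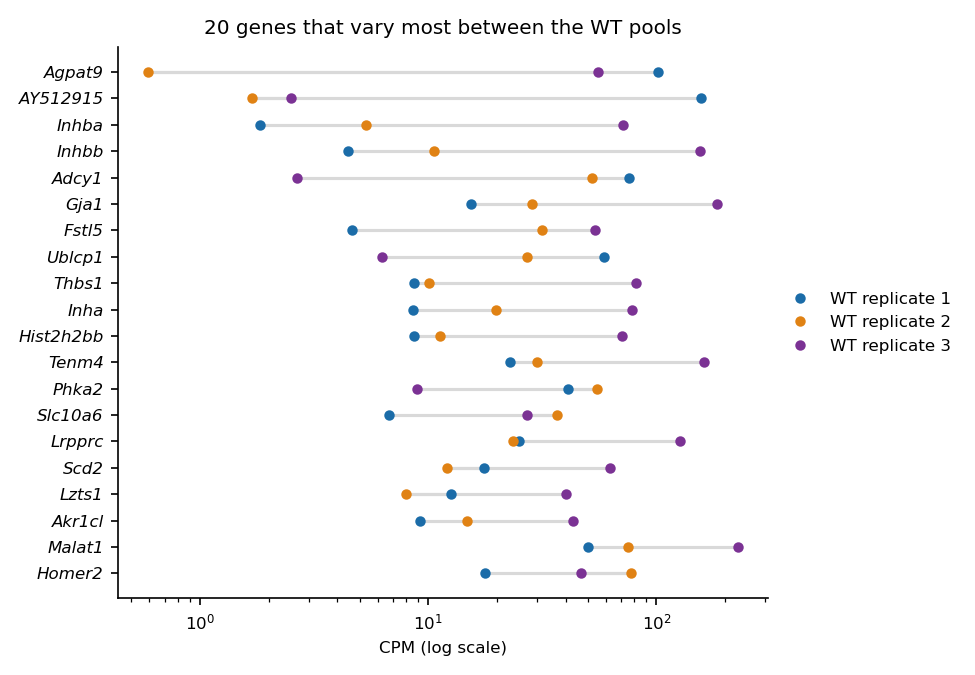
CPM in each WT pool (coloured points, log scale) of the 20 genes of at least 20 CPM with the largest ratio of highest to lowest pool, ordered by that ratio. Genes with Gm or RIKEN names are left out. Replicate 3 holds the highest point for 13 genes, replicate 1 for 4 and replicate 2 for 3.

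At the other end, the 10 genes of at least 100 CPM with the smallest CV lay within 1.01-fold between pools and below their own counting CV. They were chosen for their small spread, with genes of Gm or RIKEN names left out, and are given as a description. A CV below the counting CV is finer than counting can resolve, so no steadiness is read from it. Pdzd2, a PDZ-domain protein, was at 389, 390.1 and 390.3 CPM, a CV of 0.175% against 1.46% from counting. Ftsj3, a factor of ribosome assembly, was at 138, 138 and 138 CPM and Lrrc8d, a subunit of volume-regulated channels, at 120.3, 121 and 121 CPM. Afap1l2, Ubfd1, Fzr1, Ssx2ip, Arhgap11a, Map4 and Gzf1 were the others, with means from 123 ± 0.504 CPM for Ssx2ip to 527 ± 2.87 CPM for Map4. Of 48 lists of oocyte and general functions with a member of at least 5 CPM, 16 had no varying member, a number to be read against the 8.6% of all genes and the 0.733% of genes of at least 100 CPM that varied, since several of these lists are short or hold abundant genes.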

How the data were processed

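Total RNA of 3 WT pools of germinal-vesicle oocytes was sequenced by the submitters as rRNA-depleted libraries from a stranded total RNA kit for low input. Reads were checked with FastQC 0.11.7 and aligned with STAR 2.7.0a to mm10, and edgeR is named without a version, all per the submitters' processing notes. The counting tool, its strand setting, its treatment of reads that match several genes and the gene annotation are not stated in the labels or those notes. The deposited count table gives whole reads per gene, and the deposited CPM signal table gives the same counts scaled by the authors. Recomputing CPM with TMM factors from edgeR 4.0.16 in R 4.3.3 over all 12 libraries gave the deposited values within a relative difference of 5.1e-15.

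From the CPM of the WT columns alone, means, SDs, CVs and ratios between pools were computed with Python 3.11.15, pandas 2.3.3 and numpy 2.4.6, and figures were drawn with matplotlib 3.10.9. Counting CVs are 1 over the square root of the mean count. CPM per kb used merged exon lengths of GENCODE vM21 (GRCm38), matched by symbol or older name for 11275 of 11385 genes (99.0%). Promoters came from the RefSeq promoter table of GRCm38.p6.

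Named genes are the 30 highest by CPM, the 20 highest by CPM per kb among genes above 5 CPM, the 6 highest of each list (all members of lists of up to 12), the member of each list with the largest ratio, the 20 most varying genes of at least 20 CPM and the 10 with the smallest CV of at least 100 CPM. Genes with Gm or RIKEN names, and symbols turned into dates, were left out of the sets of 20 and 10 genes. Genes named outside this rule, such as Nobox, Figla, Khdc3, Ooep, Dnmt3a, Dppa3, Actb, Mfn2 and single varying members of lists, were picked for their role or after their values were seen, and a few genes that the rule takes are not reported here. Members, markers and lists were chosen with earlier results of these data known, and 1 wrong entry was taken out of the cell cycle list after its values were seen. Alternatives were other scalings (library size alone, and size factors of DESeq2 1.42.0), other minimum levels and folds, ranking per kb, and leaving out each pool.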

Additional observations from a re-analysis of the deposited data

How the results depend on the processing

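Ranked and summed per kb, the 10, 100 and 1000 highest genes held 4.99%, 19.4% and 55.9% of the total. The number of varying genes, 784, became 2156 with no minimum level, 2033 at a minimum of 1 CPM, 142 at 20 CPM, 2346 at 1.5-fold and 222 at 3-fold, and ran from 231 (without replicate 3) to 522 when a pool was left out. At a minimum of 1 CPM, replicate 1 was high in 134 genes and low in 271, replicate 2 in 93 and 179, and replicate 3 in 315 and 341. At 20 CPM these numbers were 7 and 17, 4 and 7, and 24 and 15. The median CV was 15.8% with no minimum, 10.4% at 20 CPM and 9.02 to 11.6% with a pool left out. With library size alone or DESeq2 size factors in place of TMM, neither these counts nor the median CV moved beyond 1.5 times or the spread between pools. Shares of CPM within a library cannot change with such scaling. Of 270 alternative values of the list medians, 248 stayed within the SD of the pools. Leaving out a pool moves the mean of a gene by less than its SD, and other scalings shift all genes of a pool alike. That count is therefore nearly fixed by design, and nothing is concluded from it. Only 2 medians moved over 1.5 times, both without replicate 3: granulosa and cumulus genes from 26.2 to 7.55 CPM, and the single snoRNA gene from 1.42 to 0.246 CPM. The cause was not tested. Counting error limits ratios of genes near 5 CPM, and 3 pools give a coarse SD. No paired analysis was possible because a single group was described and no groups were compared.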
